A study of Homo sapiens with 6 samples.

Results

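HOXA-AS2, HOXA10-AS, HOXA11-AS, AC004080.2 and HAGLR are long non-coding RNA (lncRNA) genes that lie inside the HOXA and HOXD clusters. All rows of the deposited table with an Ensembl identifier and one of these 5 gene names were taken, which gave 7 of the 1437 transcripts in the table. GENCODE release 29 lists 41 transcripts for these genes, 11 for HOXA-AS2, 3 for HOXA10-AS, 10 for HOXA11-AS, 1 for AC004080.2 and 16 for HAGLR. The 34 that the table does not list were not analysed here. RNA of 2 human cell lines had been sequenced, with 3 samples per line. HBE, spelled HEB in part of the labels, stands for normal lung epithelium and was grown in RPMI-1640 medium. A549 stems from a lung adenocarcinoma and was grown in DMEM, so medium and line cannot be told apart. Neither line carried a named genetic change or treatment, both media held fetal bovine serum, penicillin and streptomycin, and the labels do not say whether each sample was a culture of its own. The p-values therefore reflect the spread among these samples alone, and that spread may be technical.

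HOX genes encode homeodomain transcription factors that set position along the body axis, and they sit in clusters whose gene order follows the order of their expression domains. Polycomb complexes keep silent HOX regions closed and Trithorax complexes keep active ones open, and adult cells often keep the HOX pattern of the region they came from. Many lncRNAs are transcribed within the clusters, several of them antisense to a HOX coding gene, and some take part in regulating their neighbours.

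Library sizes recovered from the table were 49376376 to 56218928 for HBE and 55444237 to 57664400 for A549, where 1 count is worth 0.0173 to 0.0203 CPM, the count scaled to the recovered library size. The table held 0.991% to 2.48% of a library in HBE and 0.459% to 1.06% in A549. Of 25 marker genes in 5 cell type lists, 8 had transcripts in the table. The airway list was measured through MIR205HG alone, with 76.2 to 213 CPM summed in HBE and no count in A549. The alveolar and club list was measured through SFTA1P alone, with 2.40 to 6.64 CPM in HBE and none in A549. The mesenchyme and fibroblast list, measured through FENDRR, MIR100HG and ZEB1-AS1, summed to 3.97 to 5.16 CPM in HBE and 1.43 to 1.89 CPM in A549, although 2 of its 4 transcripts were higher in A549 and 2 lower. The neural list, measured through LINC00461, MIAT and OLMALINC, summed to 1.07 to 3.26 CPM in HBE and 3.19 to 4.001 CPM in A549. The ranges overlapped, and 1 of its 3 transcripts was higher in A549 and 2 lower. None of the 4 blood and endothelium markers was in the table. Protein-coding markers such as KRT5, TP63 and SFTPC were not analysed here. The part of these markers in the HOX results was not tested.

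All 7 HOX cluster transcripts were lower in A549 than in HBE, and 6 of them had no count in any A549 sample. HOXA-AS2-202 was the exception, with counts in all 6 samples. The quasi-likelihood test of edgeR on the whole table, with Benjamini-Hochberg adjustment, called all 7 at an adjusted p under 0.05. The authors had chosen the table for its differences between the same samples, so 99.9% of the table was called and 52.3% of the table was called as lower in A549, and the number of members called says nothing about the members. The lines did not overlap for any of the 7 transcripts, as for 99.2% of the table, and 51.8% of the table did not overlap with A549 lower. No count in A549 was the state of 27.7% of the table. In bulk RNA, fewer cells with a transcript and less of it per cell cannot be told apart.

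**Figure D1:**
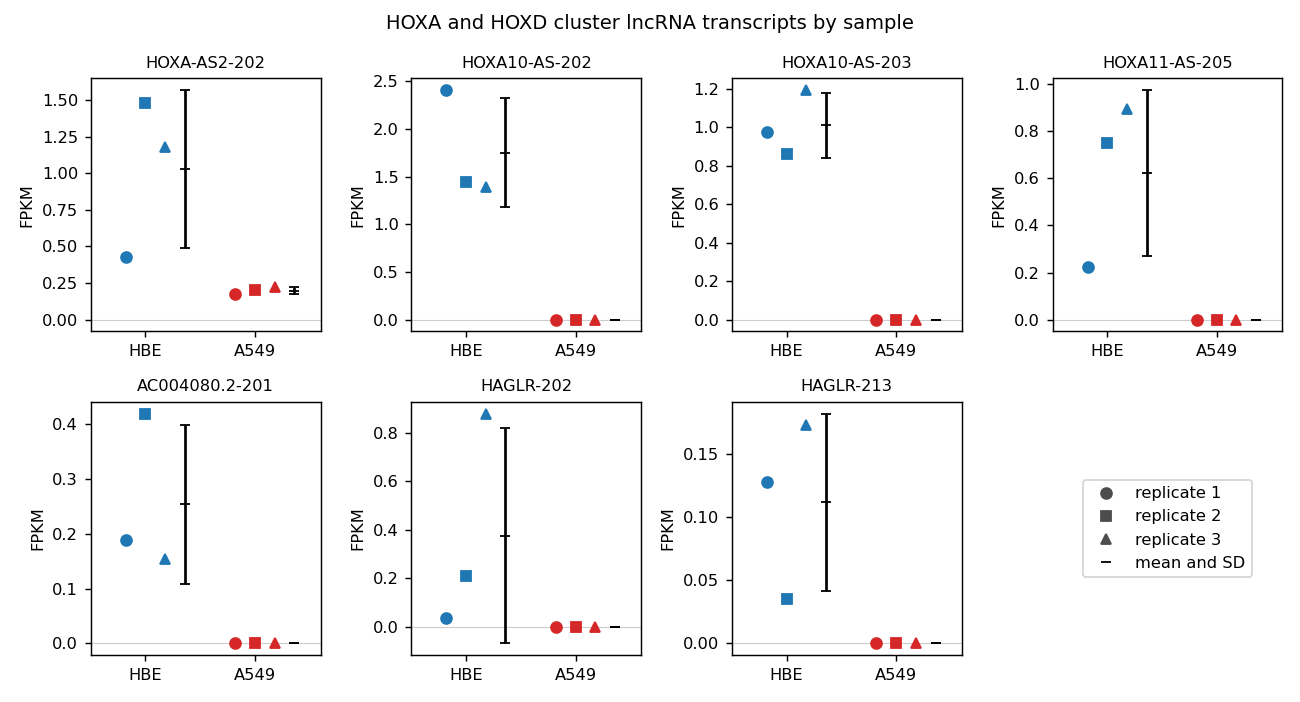
FPKM (y axis, linear, own scale per panel) of the 7 transcripts in each HBE and A549 sample, with the mean and SD of 3 samples in black. In A549 only HOXA-AS2-202 is above 0, at 0.172 to 0.223 FPKM, and HBE replicate 1 is the lowest HBE sample for HOXA-AS2-202, HOXA11-AS-205 and HAGLR-202 but the highest for HOXA10-AS-202.

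Splice junctions are shown to identify 6 of the 7 transcripts by sequence, and not all of them are particular to 1 isoform. Each line gives the last 30 bases of an exon in lower case and the first 30 of the next exon in capitals, from GENCODE transcripts on GRCh38.
HOXA-AS2-202, exon 1 to exon 2: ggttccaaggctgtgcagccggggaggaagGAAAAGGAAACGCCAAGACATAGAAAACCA
HOXA10-AS-202, exon 1 to exon 2: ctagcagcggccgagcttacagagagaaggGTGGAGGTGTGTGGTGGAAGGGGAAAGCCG
HOXA11-AS-205, exon 1 to exon 2: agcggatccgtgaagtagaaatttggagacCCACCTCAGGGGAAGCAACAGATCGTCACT
AC004080.2-201, exon 1 to exon 2: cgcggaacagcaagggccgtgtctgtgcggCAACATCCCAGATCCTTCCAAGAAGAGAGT
HAGLR-202, exon 1 to exon 2: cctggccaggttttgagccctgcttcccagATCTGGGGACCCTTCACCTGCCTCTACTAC
HAGLR-213, exon 2 to exon 3: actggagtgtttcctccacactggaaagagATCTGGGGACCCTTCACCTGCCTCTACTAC
Within its gene the junction shown for HOXA-AS2-202 occurs in 1 of 11 isoforms, that of HOXA10-AS-202 in 1 of 3 and that of HOXA11-AS-205 in 1 of 10. The junction of HAGLR-202 occurs in 5 of 16 isoforms and that of HAGLR-213 in 4 of 16, and both join the same exon, so their capitals are alike.

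HOXA-AS2 is transcribed antisense to HOXA3, and in human promyelocytic cells its RNA is known to restrain apoptosis. HOXA-AS2-202 (ENST00000517635, chr7:27115348-27123377, plus strand, GRCh38) has 2 exons and 2455 bases. The HBE samples 1, 2 and 3 held 60, 188 and 143 of its counts, and the A549 samples held 24, 28 and 32. The lines did not overlap, and HBE replicate 1 lay nearest to A549. The level was 1.03 ± 0.540 FPKM in HBE and 0.198 ± 0.0256 FPKM in A549 (SD, n = 3 each). Summed counts per library size were 5.00-fold higher in HBE. The log2 fold change of A549 over HBE was -2.34 (SE 0.65), and edgeR gave an adjusted p of 0.00142. This call was lost with DESeq2 size factors taken from the table, where the log2 fold change was -0.89 and the adjusted p 0.163. The DESeq2 Wald test gave -0.90 with an adjusted p of 0.136, and adjusted p over the alternatives tried ran from 8.84e-05 to 0.163. Those size factors moved the median log2 fold change of the whole table by 0.86 and the Wald test by 1.40. In the authors' deposited table the log2 fold change was -2.14.

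HOXA10-AS lies opposite HOXA10, HOXA9 and the microRNA gene MIR196B, whose product belongs to the miR-196 family, known to repress HOX messenger RNAs. Both isoforms in the table run over the whole MIR196B hairpin on the other strand, so their RNA holds a stretch complementary to the mature miR-196b-5p. The microRNA, from RefSeq, is shown with its seed (bases 2 to 8) in capitals, and the 84 bases of HOXA10-AS opposite the hairpin (chr7:27169480-27169563, plus strand, GRCh38) with the 22 complementary bases in capitals.
hsa-miR-196b-5p: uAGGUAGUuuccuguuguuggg
HOXA10-AS-202 and HOXA10-AS-203: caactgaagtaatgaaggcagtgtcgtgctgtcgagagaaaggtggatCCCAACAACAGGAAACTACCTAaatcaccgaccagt
miR-196b itself was not analysed here.

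HOXA10-AS-202 (ENST00000519935, chr7:27168899-27171915, plus strand, 3 exons, 1161 bases) was counted 158, 88 and 80 times in HBE samples 1, 2 and 3, with 0 in every A549 sample. HOXA10-AS-203 (ENST00000523790, chr7:27169094-27171765, plus strand, 2 exons, 1129 bases) had 62, 51 and 67 counts in HBE and 0 in every A549 sample. Neither isoform overlapped between the lines, and HBE replicate 1 was highest for the former and intermediate for the latter. Their levels in HBE were 1.75 ± 0.572 FPKM and 1.01 ± 0.169 FPKM (SD, n = 3 each). With no count in A549 the fold is a lower bound, computed against 3 counts in all of A549, or 0.0177 CPM. It covers counting error only, as do the intervals below. HOXA10-AS-202 was at least 117-fold and HOXA10-AS-203 at least 64.4-fold lower in A549, or at least 76.9-fold and 42.5-fold without A549 replicate 3, since fewer A549 reads then set the bound. Their adjusted p were 2.59e-07 and 3.62e-06 by edgeR.

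The isoforms of HOXA10-AS start 195 bases apart and share 916 exon bases. Stretches at the 5′ ends that only one of them holds are exon 1 of HOXA10-AS-202 (chr7:27168899-27168993) and the part of exon 1 of HOXA10-AS-203 before the shared bases (chr7:27169094-27169306).
HOXA10-AS-202: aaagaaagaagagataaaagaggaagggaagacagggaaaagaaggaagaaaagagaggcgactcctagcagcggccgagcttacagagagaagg
HOXA10-AS-203: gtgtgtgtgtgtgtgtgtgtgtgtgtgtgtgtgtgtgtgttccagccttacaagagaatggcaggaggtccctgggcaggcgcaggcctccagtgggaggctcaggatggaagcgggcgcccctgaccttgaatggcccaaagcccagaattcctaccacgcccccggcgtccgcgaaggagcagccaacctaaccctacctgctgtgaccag
HOXA10-AS-202 took 71.8% of the counts of both isoforms in HBE replicate 1 (exact binomial 95% interval 65.4% to 77.7%), 63.3% in replicate 2 (54.7% to 71.3%) and 54.4% in replicate 3 (46.0% to 62.6%). It held the larger share in each HBE sample, and the interval of replicate 3 reached below an even split. The counts are estimates for isoforms that share most of their bases, so the intervals do not hold the error of assigning reads.

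HOXA11-AS is antisense to HOXA11, a gene of limb and uterus development, and has been described as raised in several carcinomas. HOXA11-AS-205 (ENST00000522863, chr7:27184671-27189169, plus strand) has 5 exons and 1739 bases. HBE samples 1, 2 and 3 held 22, 68 and 77 counts and every A549 sample 0, at 0.621 ± 0.353 FPKM in HBE (SD, n = 3). HBE replicate 1 was again the lowest, and the lines did not overlap. The transcript was at least 59.8-fold lower in A549, or at least 39.4-fold without A549 replicate 3, with an adjusted p of 7.64e-06 by edgeR.

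AC004080.2 has a clone-derived name and no known role, and GENCODE places it on the strand opposite HOXA11-AS as a lincRNA. AC004080.2-201 (ENST00000523331, chr7:27186573-27193448, minus strand, 2 exons, 556 bases) was counted 6, 13 and 5 times in HBE samples 1, 2 and 3, with 0 in every A549 sample. It was the least counted of the 7 transcripts, at 0.253 ± 0.144 FPKM in HBE (SD, n = 3). It was at least 8.59-fold lower in A549, or at least 5.66-fold without A549 replicate 3, with an adjusted p of 6.02e-05 by edgeR. Exon 2 (chr7:27186573-27186823, minus strand) is shown because 141 of its 251 bases, in capitals, lie opposite exons of other HOXA11-AS isoforms.
AC004080.2-201, exon 2: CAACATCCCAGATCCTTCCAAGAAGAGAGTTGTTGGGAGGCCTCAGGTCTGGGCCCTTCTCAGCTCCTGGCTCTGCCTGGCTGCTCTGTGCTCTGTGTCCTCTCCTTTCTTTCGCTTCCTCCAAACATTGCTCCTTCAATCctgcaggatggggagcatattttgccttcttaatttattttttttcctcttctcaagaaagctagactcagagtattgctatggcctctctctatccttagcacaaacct

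HAGLR, named as a growth-associated antisense lncRNA of the HOXD cluster and also known as HOXD-AS1, lies next to HOXD1. HAGLR-202 (ENST00000416928, chr2:176173189-176178129, minus strand, 3 exons, 4086 bases) was counted 9, 45 and 178 times in HBE samples 1, 2 and 3, with 0 in every A549 sample. HAGLR-213 (ENST00000642267, chr2:176173233-176188546, minus strand, 4 exons, 3821 bases) had 28, 7 and 33 counts in HBE and 0 in every A549 sample. HBE replicate 3 was highest for both, while replicate 1 was lowest for HAGLR-202 and replicate 2 for HAGLR-213. Their levels in HBE were 0.375 ± 0.444 FPKM and 0.112 ± 0.0700 FPKM (SD, n = 3 each), so the SD of HAGLR-202 exceeded its mean. HAGLR-202 was at least 83.1-fold lower in A549, a bound that was 28.2-fold without HBE replicate 3 and 54.7-fold without A549 replicate 3. HAGLR-213 was at least 24.3-fold lower, or 16.0-fold without A549 replicate 3. The adjusted p were 8.96e-06 and 6.05e-05 by edgeR.

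Both HAGLR isoforms share 3623 exon bases and differ in where they begin. HAGLR-213 starts 10417 bases upstream of HAGLR-202 and 33 bases from the nearest annotated start of HOXD1, which runs the other way. The RefSeq promoter windows (GRCh38.p14, 250 bases before to 50 after a start, minus strand) at these starts are shown with the motif CACGTG in capitals. The window chr2:176178080-176178379 is set on the start of HAGLR-202. The window chr2:176188523-176188822 is set on a RefSeq start 26 bases before that of HAGLR-213. Most of this distal window lies beyond the HOXD1 start, in the direction in which HOXD1 runs. Its CpG count and motifs therefore cannot be assigned to HAGLR alone.
HAGLR-202 start: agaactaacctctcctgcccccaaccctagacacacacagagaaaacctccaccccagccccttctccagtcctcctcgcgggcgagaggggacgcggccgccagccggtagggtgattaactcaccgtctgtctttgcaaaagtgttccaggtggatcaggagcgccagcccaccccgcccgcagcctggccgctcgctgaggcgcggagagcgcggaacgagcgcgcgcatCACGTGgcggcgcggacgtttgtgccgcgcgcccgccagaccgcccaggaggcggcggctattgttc
HAGLR distal start: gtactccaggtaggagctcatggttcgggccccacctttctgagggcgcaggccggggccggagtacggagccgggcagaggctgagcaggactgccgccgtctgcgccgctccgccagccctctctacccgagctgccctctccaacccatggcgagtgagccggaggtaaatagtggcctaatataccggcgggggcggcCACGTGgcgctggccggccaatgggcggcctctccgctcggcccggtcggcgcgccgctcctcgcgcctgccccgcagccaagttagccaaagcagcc
The windows held 33 and 31 CpG dinucleotides, against a median of 14 over 35116 RefSeq windows, of which 17.2% and 20.7% held at least as many. Each held CACGTG once on both strands, with its first base at position -17 and -48, where the start is 0, and 7.26% of all windows hold it. GGGCGG, found in 45.0% of all windows on either strand, was in both, and CCAAT, found in 34.6%, was in the distal one. TATAAA, found in 11.5%, was in neither on either strand. An exact direct repeat of AGGTCA, a half-site of the retinoic acid receptor, with a spacer of 5 bases was also in neither. Only 0.0057% of all windows hold that exact repeat, and other forms of the half-site were not searched, so its absence says little. The motifs were chosen with these windows in view, none overlaps another by its letters in these windows, and a match is only a match of letters. RefSeq windows were listed for 3 of the 5 genes. Those of HOXA-AS2 and HOXA11-AS are set within 1 base of exon 2 of HOXA-AS2-202 and HOXA11-AS-205 and not on the starts of these isoforms, so they are not shown.

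The split of counts between the pair of HAGLR isoforms in the table differed between HBE samples. HAGLR-202 made up 24.3% of the counts of both isoforms in replicate 1 (9 of 37, exact binomial 95% interval 11.8% to 41.2%). It made up 86.5% in replicate 2 (45 of 52, 74.2% to 94.4%) and 84.4% in replicate 3 (178 of 211, 78.7% to 89.0%). The interval of replicate 1 lay below those of the other samples, which overlapped each other. Isoform lengths of 4086 and 3821 bases are close, so length does little to these shares. HAGLR-202 was thus the less counted of the pair in 1 HBE sample and the more counted in the other two. The counts are estimates for isoforms that share most of their bases, other HAGLR isoforms were not analysed here, and the use of each start was not measured.

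**Figure D2:**
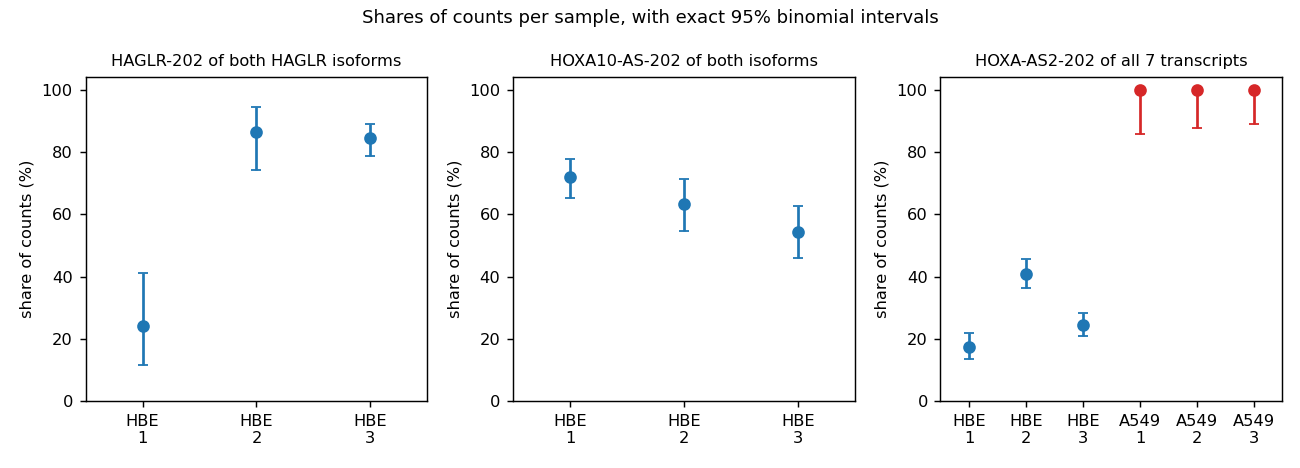
Shares of counts (y axis, percent) per sample, with exact binomial 95% intervals, for HAGLR-202 among both HAGLR isoforms, HOXA10-AS-202 among both HOXA10-AS isoforms and HOXA-AS2-202 among all 7 transcripts. HBE replicate 1 stands at 24.3% in the HAGLR panel, and the A549 samples stand at 100% in the HOXA-AS2 panel.

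HOXA-AS2-202 differed from the other 6 transcripts in that it was also counted in A549. Of the counts of all 7 transcripts it made up 17.4%, 40.9% and 24.5% in HBE replicates 1, 2 and 3, from 345, 460 and 583 counts. In A549 it made up 100% of 24, 28 and 32 counts, with exact binomial lower limits of 85.8%, 87.7% and 89.1%. The mean share in HBE was 27.6% ± 12.0 (SD, n = 3). The share in A549 follows from the absence of counts of the other 6 transcripts there and is no separate result. An exact two-sided permutation test of the share gave p = 0.1, the smallest possible with 3 samples per line, so it could not reach the threshold. The 5.00-fold ratio of HOXA-AS2-202, which ran from 3.87 to 6.58 with 1 sample left out, was below the bound of each other transcript. For AC004080.2-201 the bound fell within that range, at 5.66 to 5.87, without any 1 of the A549 samples or without HBE replicate 2.

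**Figure D3:**
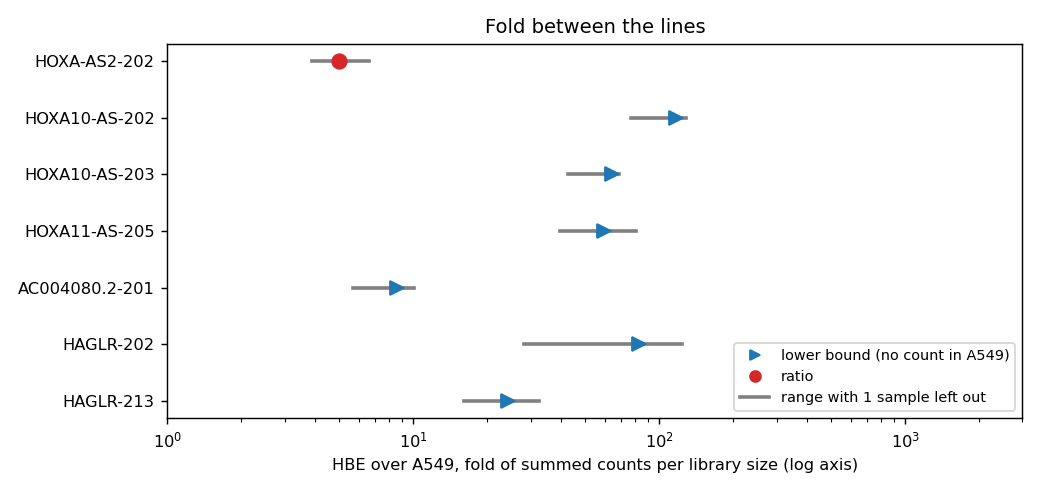
Fold of HBE over A549 in summed counts per library size (x axis, log scale) for the 7 transcripts. Arrowheads are lower bounds against 3 counts, the circle is the ratio of HOXA-AS2-202 at 5.00, and grey lines are ranges with 1 sample left out, from 28.2 to 124 for HAGLR-202.

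Per length, HOXA10-AS-202 had the highest mean FPKM in HBE, followed by HOXA-AS2-202, HOXA10-AS-203, HOXA11-AS-205, HAGLR-202, AC004080.2-201 and HAGLR-213. The ranges of each neighbouring pair in this order overlapped, so no neighbours differed beyond their spread. HOXA10-AS-202 stood above 91.8% of the table in mean HBE FPKM and HAGLR-213 above 41.7%. By gene, counts of the transcripts in the table summed to 3.19 ± 0.643 CPM for HOXA10-AS, 2.53 ± 1.32 for HOXA-AS2, 1.98 ± 2.00 for HAGLR, 1.09 ± 0.615 for HOXA11-AS and 0.153 ± 0.0848 for AC004080.2 in HBE (SD, n = 3 each). Without HBE replicate 3 the mean of HAGLR was 0.831 CPM and that of HOXA11-AS 0.851 CPM, so the place of HAGLR above HOXA11-AS rests on that sample. HOXA10-AS made up 63.8% of the counts of all 7 transcripts in HBE replicate 1, 30.2% in replicate 2 and 25.2% in replicate 3. HAGLR made up 10.7%, 11.3% and 36.2%. The make-up of the HOX lncRNA counts thus differed between samples of the same line.

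HAGLR-202 varied more between HBE samples than nearly all of the 575 transcripts compared. Its highest FPKM, 0.878 in replicate 3, was 23.8-fold its lowest, 0.0370 in replicate 1. Those 575 had a mean of at least 20 counts in HBE and a count in each HBE sample. Of them 8 varied as widely, HAGLR-202 included, or 1.39%, and the median was 2.43-fold. Transcripts without a count in some HBE sample were not compared. The lowest value of HAGLR-202 rests on 9 estimated counts. Summed over its isoforms in the table, HAGLR ran from 0.658 CPM in replicate 1 to 4.27 CPM in replicate 3. HOXA10-AS-203 varied 1.39-fold and HOXA10-AS-202 1.73-fold, less than that median. HAGLR-213 varied 4.90-fold, HOXA11-AS-205 4.02-fold and HOXA-AS2-202 3.45-fold. AC004080.2-201, below 20 counts on average, varied 2.73-fold.

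**Figure D4:**
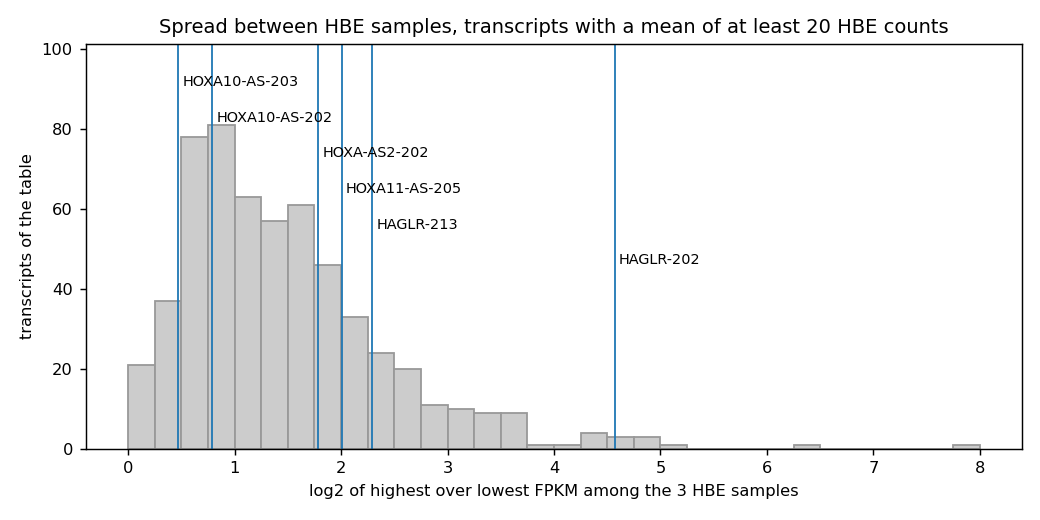
Highest over lowest FPKM among the 3 HBE samples (x axis, log2) for 575 transcripts of the table with a mean of at least 20 HBE counts and a count in each HBE sample (grey bars, y axis, number of transcripts). Lines mark 6 of the 7 HOX lncRNA transcripts, with HAGLR-202 far to the right at 23.8-fold.

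How much of a transcript lies opposite the exons of another gene differed widely, and none of the sources used here says whether counting was stranded. Exons of HOXA10, HOXA9 or MIR196B lie opposite 87.6% of HOXA10-AS-202 and 77.9% of HOXA10-AS-203. Exons of HOXA11 lie opposite 31.8% of HOXA11-AS-205, and exons of HOXA11-AS opposite 25.4% of AC004080.2-201. Exons of HAGLROS, the antisense neighbour of HAGLR, lie opposite 10.1% of HAGLR-202. Exons of HOXA3 lie opposite 3.42% of HOXA-AS2-202, and no exon of the genes compared lies opposite HAGLR-213. GENCODE genes of the type misc_RNA were left out of all these overlaps. Without strand, reads of the coding partner and of the lncRNA cannot be told apart in those parts, which concerns HOXA10-AS most. No stretch of at least 50 bases of the 7 transcripts recurred at 97% identity or more in a GENCODE transcript from another place.

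**Figure D5:**
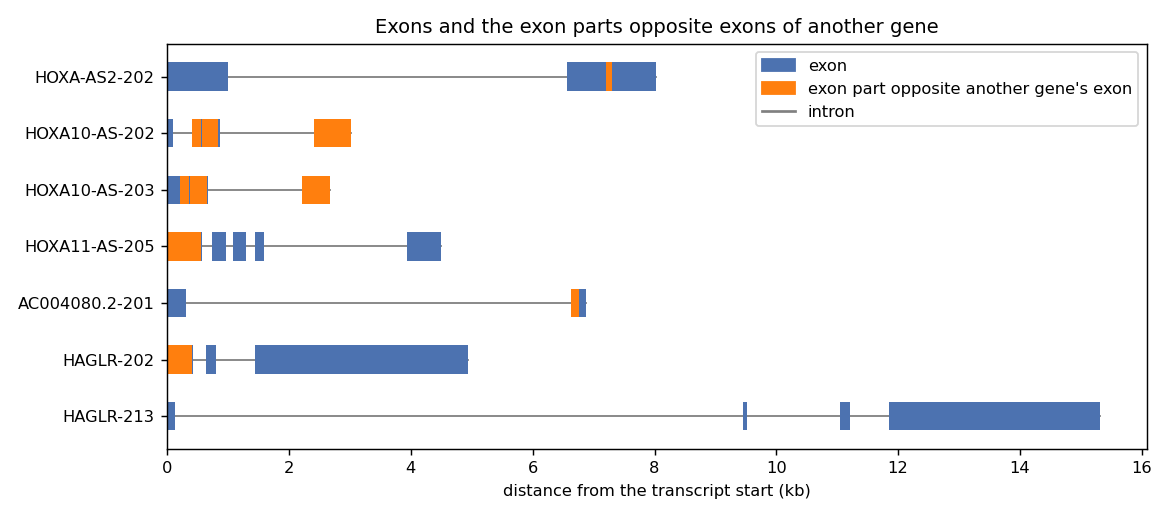
Exons (blue) and introns (lines) of the 7 transcripts against distance from the transcript start (x axis, kb), with exon parts opposite exons of another gene in orange (misc_RNA genes left out). Orange covers 87.6% of the exon bases of HOXA10-AS-202 and none of HAGLR-213.

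Of the other HOX cluster genes and HOX cofactors searched, 3 transcripts were in the table, all on chromosome 12 at the HOXC cluster and all lower in A549. For comparison, edgeR called 99.9% of the whole table, and 52.3% as lower in A549. HOXC-AS2-202 fell from 1.40 ± 0.316 to 0.118 ± 0.00885 CPM and HOXC-AS3-204 from 1.63 ± 0.193 to 0.0832 ± 0.0550 CPM (SD, n = 3 each), while FLJ12825-201 summed to 121 counts in HBE and to 0 in A549, or at least 43.3-fold lower. The adjusted p by edgeR were 0.00013 and 5.45e-05 for the former pair and 1.51e-05 for FLJ12825-201. HOXC-AS2 and HOXC-AS3 thus had counts in A549, as HOXA-AS2 did. Transcripts of HOTAIR, HOTTIP, HOTAIRM1, HAGLROS and the HOX coding genes were not analysed here.

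No other annotated transcript of the table lay within 1 Mb of the HOX lncRNAs, out of 688 annotated ones. The nearest one on each side of each cluster was taken, a choice made after the values were seen. These were AC010719.1-201 at 1.17 Mb and LINC01176-202 at 3.20 Mb on chromosome 7, and AC009948.2-201 at 2.36 Mb and AC007405.2-201 at 5.36 Mb on chromosome 2. All 4 were lower in A549, with log2 fold changes of -4.02, -3.93, -3.43 and -4.80 in that order and adjusted p of at most 0.00154 by edgeR. Of the whole table edgeR called 99.9%, and 52.3% as lower in A549. Mean levels of the 4 in A549 were 0.0235 to 0.0298 CPM, where 1 count in A549 is worth 0.0173 to 0.0180 CPM. The sizes of these fold changes therefore rest on few A549 counts.

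By pattern over the 6 samples, measured as the root mean square difference of centred log2(CPM + 0.1), the transcripts nearest to HAGLR were SFTA1P-203 at 0.32 and AC022150.4-201 at 0.41. SFTA1P-203, from a transcribed pseudogene of a surfactant-associated gene, had 1.23, 1.54 and 5.00 CPM in HBE replicates 1, 2 and 3 and none in A549, and so shared the high replicate 3 with HAGLR. HOXA11-AS was nearest to AC022150.4-201 at 0.22 and C9orf106-201 at 0.30, HOXA10-AS to LINC01503-204 at 0.31 and AC244153.1-203 at 0.33, and AC004080.2 to RGS5-217 at 0.044 and AC097059.1-202 at 0.14. HOXA-AS2 was nearest to LINC00982-206 at 0.24 and LINC00958-201 at 0.28, both without counts in A549 and with lower levels in HBE. Where a transcript has no count in A549, its distance depends on the added 0.1 CPM. The nearness of HOXA-AS2, which was counted in A549, to such transcripts rests on that setting. These distances come from 6 samples that share their libraries and are a description.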

How the data were processed

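Per the submitters' processing notes, HISAT2, StringTie, DESeq2 and GRCh38 were used, without versions. The authors deposited estimated counts and FPKM per transcript and sample, with a p-value and log2 fold change of A549 over HBE, for transcripts they had selected. The sources used here do not say if that p-value was adjusted. The counts were already whole and were not rounded. All per-sample columns were matched to a sample. Library sizes were solved from count, FPKM and GENCODE release 29 length, and 99.6% to 99.8% of nonzero annotated values then matched within 1 count.

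All 1437 transcripts were fitted with edgeR 4.0.16 in R 4.3.3 (quasi-likelihood, Benjamini-Hochberg at 0.05, no filter, no replicate block). Standard errors are the log2 fold change divided by the square root of F. The procedure was tested on simulated data, in which most transcripts were unchanged and none was set to be absent from a line. Members without A549 counts were therefore not covered by that test. Alternatives used DESeq2 1.42.0, limma 3.58.1, TMM, filters, FPKM on a log2 scale with a pseudocount, a replicate block and left-out samples. Bounds use 3 counts over the line without counts. Intervals are exact binomial at 95%. Copies were sought with BLAST+ 2.17.0.

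Named were all transcripts of the 5 genes, of a HOX gene and cofactor list, and within 1 Mb, and per gene the 2 transcripts nearest in pattern. The members and lists were chosen with earlier results of these data known.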

Additional observations from a re-analysis of the deposited data

How the results depend on the processing

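With at least 10 counts in at least 3 samples, 941 of 943 transcripts and 4 of 4 HOX lncRNA transcripts were called. AC004080.2-201, HAGLR-202 and HAGLR-213 did not meet the filter. HOXA10-AS-202, HOXA10-AS-203 and HOXA11-AS-205 met it through HBE alone, having no count in A549, so their calls after it add no support. Under the 14 other alternatives run on all samples or without 1 sample, every HOX lncRNA transcript that was tested stayed lower in A549 and kept its call, except HOXA-AS2-202 with DESeq2 size factors (log2 fold change -0.89) and the DESeq2 Wald test (-0.90). With column totals of the table as library sizes the ratio of HOXA-AS2-202 was 1.80, and the bounds were 42.1 for HOXA10-AS-202, 23.3 for HOXA10-AS-203, 21.6 for HOXA11-AS-205, 3.10 for AC004080.2-201, 29.97 for HAGLR-202 and 8.78 for HAGLR-213. Leaving out 1 sample, the bound ran from 76.9 to 128 for HOXA10-AS-202 and from 42.5 to 68.9 for HOXA10-AS-203. With limma on log2(FPKM + 0.1) and a low-value filter HAGLR was not tested. The other members without A549 counts met that filter through HBE alone. Replicate numbers are shared between the lines. Deviations of same-numbered samples correlated at -0.0495 to 0.0110 over 1437 transcripts, and no HBE sample correlated best with its own number in A549. With 3 samples per line, each centred on its line, such correlations cannot decide whether same-numbered samples were handled together. With the replicate block 1342 transcripts of the table passed in place of 1435, and all 7 HOX lncRNA transcripts did, HOXA-AS2-202 with a log2 fold change of -2.19.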
